A study of Mus musculus with 57 samples.

Results

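The 10 nuclear genes that maintain and transcribe the mitochondrial genome and are described here were measured in adipose tissue of mice homozygous for the Mfn2 R707W knock-in (KI) and of wild-type (WT) mice. They are Tfam, Tfb1m, Tfb2m, Polrmt, Tefm, Polg, Polg2, Twnk, Ssbp1 and Lrpprc. The 10 genes were taken by symbol from a list of the machinery, and not by their values, out of 52853 genes in the count tables. All 10 were found and all 10 passed the filter on low counts in every comparison. R707W is the mitofusin 2 substitution found in patients with multiple symmetric lipomatosis. All mice were male, and the KI line was bred on the C57BL/6J background from a single founder. According to the labels they entered the diets at 5 weeks of age and stayed on them for 6 months. Bulk polyA RNA was sequenced from brown adipose tissue (BAT) on a high fat diet (HFD, 45% of kcal as fat; 6 WT and 6 KI mice), from inguinal white adipose tissue (inguinal WAT) on HFD (8 WT and 8 KI) and from inguinal WAT on chow (7 WT and 6 KI). Each tissue and diet was deposited as a table of its own. A comparison of tissues or diets is therefore also a comparison of tables, and the contributions cannot be told apart.

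Mitochondrial DNA is a small circle that encodes 13 respiratory chain mRNAs with the rRNAs and tRNAs needed to translate them. Everything that copies, packages and reads it is encoded in the nucleus and imported. In brown fat, where Ucp1 lets the respiratory chain run to make heat, mitochondrial genomes and their transcripts are abundant. Loss of Tfam, Polg, Twnk or Polrmt depletes mitochondrial DNA or its transcripts in mice, and variants of Polg and Twnk are well known in human mitochondrial disease.

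The share of counts on the 37 mitochondrially encoded (mt-) genes was lower in KI mice in all 3 tables, 1.43-fold in BAT, 3.63-fold in inguinal WAT on HFD and 1.67-fold in inguinal WAT on chow. Of the 10 genes that maintain and transcribe that genome, none was called in BAT (1.83% of all genes tested were) and only Lrpprc was called in inguinal WAT (11.5% of all genes on HFD and 3.23% on chow), where it was higher in KI mice, by 1.34-fold on HFD and 1.40-fold on chow. Between BAT and inguinal WAT on HFD all 10 were called higher in BAT in WT mice, in a comparison that called 57.8% of all genes in either direction. The size of these differences depends on the scaling between the tissues. Calls were made with edgeR's quasi-likelihood test, at a Benjamini-Hochberg adjusted p (over all genes tested) below 0.01. In bulk tissue, fewer cells of a type and less RNA per cell cannot be told apart.

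Total counts per mouse, in units of 1e6 counts, were 8.04 to 10.5 in BAT, 17.6 to 25.7 in inguinal WAT on HFD and 8.67 to 11.7 in inguinal WAT on chow. Ucp1 had a mean of 6164 CPM (counts scaled to library size) in BAT of WT mice and at most 1.77 CPM in any inguinal sample, and Adipoq was at or above 574 CPM in every mouse. Mfn2 itself, whose transcript is not removed by the substitution, was not called, with log2 fold changes of 0.29, 0.34 and 0.36. Mouse 4 of the KI group on chow held skeletal muscle RNA, with 8 muscle markers at 61189 CPM in sum against at most 3877 CPM in any other mouse. Its mt- share of 3.84% was also the highest of its group. Smaller sums were seen in BAT, at 2744 and 3066 CPM in WT mice 1 and 2 and 939 CPM in KI mouse 6. In inguinal WAT on HFD, WT mice 1 and 2 had 1202 and 1198 CPM, and KI mice 3 and 5 had 3877 and 2110 CPM. WT mouse 1 and KI mouse 6 in BAT had the highest mt- shares of their groups, as did WT mouse 1 in inguinal WAT. The others did not. Of the marker lists of 8 genes each, 1 fibroblast marker was lower in BAT, and 1 each of the macrophage, lymphocyte and fibroblast markers was lower in inguinal WAT on HFD, with no call among endothelial or muscle markers. Adipocyte markers gave 3 higher and 1 lower call in inguinal WAT on HFD and 1 higher call on chow, Cidea, which is also on the brown list. On HFD in inguinal WAT, 2 brown adipocyte markers were higher and 2 were lower. Of all genes tested, 1.83% were called in BAT, 11.5% in inguinal WAT on HFD and 3.23% on chow. Beyond these calls, lists leaned to one side, though not all to the same side. Macrophage markers had negative log2 fold changes in 8, 7 and 8 of 8 genes in BAT and in inguinal WAT on HFD and chow (medians -0.45, -0.32 and -0.55), and fibroblast markers in 7, 7 and 6 of 8 (medians -0.73, -0.33 and -0.49). Endothelial markers were negative in 7, 5 and 8 of 8 (medians -0.24, -0.07 and -0.32), and brown adipocyte markers were positive in 8 of 8 in BAT (median 0.32). Lymphocyte markers were negative in 7 of 8 in inguinal WAT on HFD (median -0.08) but positive in 6 of 6 tested on chow (median 1.64). Their sums on chow had a median of 6.28 CPM in KI and 9.37 CPM in WT mice, with highest values of 367 and 87.5 CPM. The positive lean on chow was thus not that of the median mouse. On HFD the highest sums were 565 CPM in KI and 399 CPM in WT mice, against medians of 9.14 and 14.7 CPM. Muscle markers were negative in 3 of 3 tested in BAT (median -1.84). In inguinal WAT they were positive in 7 of 8 on HFD and 4 of 4 tested on chow (medians 0.62 and 4.61). The muscle sums of the median mouse did not follow, at 183 CPM in KI and 304 CPM in WT on HFD. On chow they were 198 CPM in KI and 199 CPM in WT mice. The part of such cells in the genotype differences of the mt- share and of the 10 genes was not tested.

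The share of counts on mt- genes differed between genotypes, and on HFD the difference was beyond the spread between mice. In BAT it had a lowest value of 14.6%, a median of 16.2% and a highest value of 18.4% in WT mice, against 10.6%, 11.2% and 12.8% in KI mice. On HFD in inguinal WAT these were 5.40%, 9.91% and 14.8% in WT mice against 2.15%, 2.52% and 3.68% in KI mice. On chow they were 2.39%, 3.77% and 5.12% against 1.73%, 1.97% and 3.84%. The genotypes did not overlap in either table on HFD, while on chow 5 of 6 KI mice lay below every WT mouse. The means were 16.3 ± 1.45% and 11.4 ± 0.816% in BAT (SD, n = 6 and 6; 2-sided exact permutation test, adjusted p = 0.00325), 9.46 ± 3.05% and 2.61 ± 0.497% in inguinal WAT on HFD (n = 8 and 8; exact adjusted p = 0.000466), and 3.70 ± 0.870% and 2.22 ± 0.800% on chow (n = 7 and 6; exact adjusted p = 0.0117). Without mouse 4 of the KI group, the richest in muscle RNA, the difference on chow was -1.81 percentage points in place of -1.48, with an exact adjusted p of 0.00253. With any other mouse on chow left out the exact adjusted p was 0.0108 to 0.0265. Taken of the TMM-scaled library size, the share gave an exact adjusted p of 0.0344 on chow. By that measure 5 of 6 KI mice in BAT lay below every WT mouse (exact adjusted p = 0.00649). The libraries were made from polyA RNA, so the share counts polyadenylated or carried-over mt- transcripts and is not a measure of mitochondrial DNA.

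Levels of the 10 genes are given as CPM scaled by TMM over all 41 mice, with fold changes from a fit of each table on its own. Tfam, which packages mitochondrial DNA into nucleoids and opens its promoters, lies at chr10:71225464-71238280 (GRCm38, minus strand). In BAT its lowest, median and highest levels were 40.4, 48.3 and 51.9 CPM in WT and 44.7, 51.3 and 68.3 CPM in KI. For inguinal WAT on HFD they were 16.5, 20.4 and 24.9 CPM in WT and 19.6, 20.8 and 25.0 CPM in KI, and on chow 26.1, 28.1 and 32.8 CPM in WT and 26.1, 27.5 and 31.1 CPM in KI. The genotypes overlapped in every table. The log2 fold changes were 0.12 ± 0.11 (SE) in BAT, 0.07 ± 0.08 in inguinal WAT on HFD and -0.04 ± 0.07 on chow, with adjusted p of 0.531, 0.596 and 0.773 in edgeR. The 95% interval in inguinal WAT on HFD ran from -0.09 to 0.24. The part of Tfam in the difference of the mt- share was not tested.

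**Figure D1:**
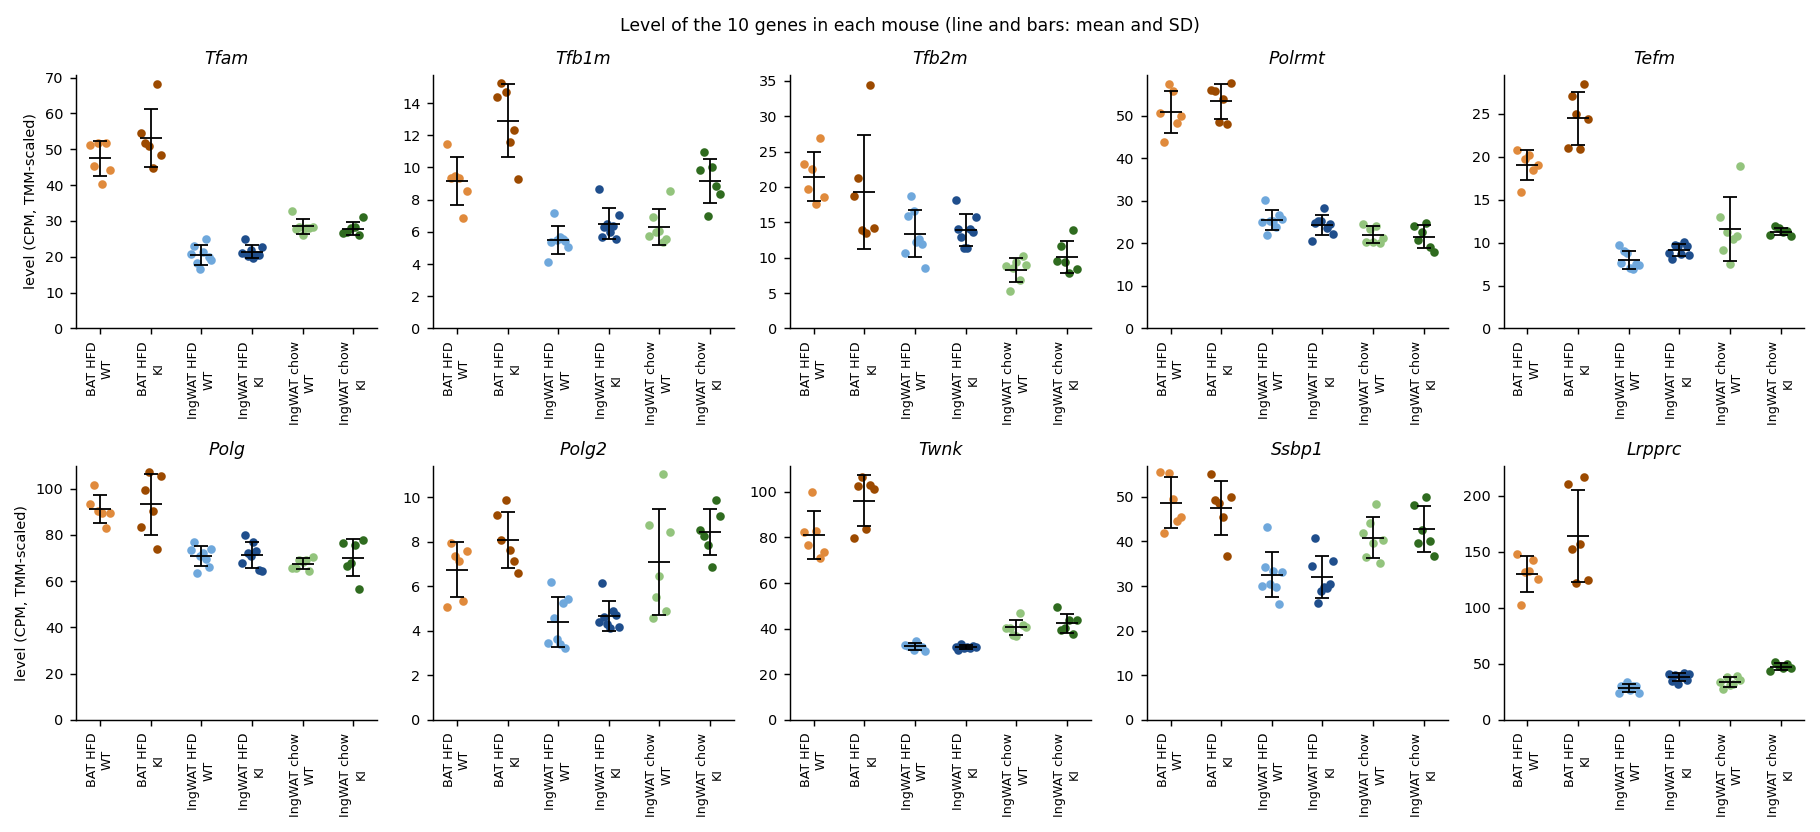
Level of each of the 10 genes in every mouse, in TMM-scaled CPM on linear axes that start at 0. Points are mice, and the line and bars are the mean and SD of each of the 6 groups. WT and KI mice overlap in most panels, except for Tefm in BAT and Lrpprc in inguinal WAT on chow, and most genes sit higher in BAT than in inguinal WAT.

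Lrpprc, a large RNA-binding protein that with Slirp keeps mt- mRNAs stable and polyadenylated, was the only one of the 10 genes called between genotypes. It lies at chr17:84705247-84790789 (minus strand). On HFD its lowest, median and highest levels in inguinal WAT were 24.2, 29.1 and 33.6 CPM in WT and 32.1, 39.6 and 41.6 CPM in KI, so that 7 of 8 KI values exceeded every WT value. The log2 fold change was 0.43 ± 0.08 (SE; edgeR adjusted p = 0.000601). On chow the levels were 27.4, 33.4 and 39.3 CPM in WT and 43.9, 46.8 and 52.0 CPM in KI, and the genotypes did not overlap. There the log2 fold change was 0.49 ± 0.09 (edgeR adjusted p = 0.00298). In BAT, where Lrpprc was far more abundant, WT mice had 102, 132 and 148 CPM and KI mice 122, 155 and 217 CPM. In BAT 4 of 6 KI values exceeded every WT value, and the log2 fold change of 0.29 ± 0.15 was not called (edgeR adjusted p = 0.241). The difference between BAT and inguinal WAT in the KI effect on Lrpprc was -0.09 ± 0.15 (edgeR adjusted p = 0.790) and that between diets -0.08 ± 0.15 (edgeR adjusted p = 0.868), so the lack of a call in BAT is not shown to be a different effect. Both calls held with each mouse left out in turn, with log2 fold changes of 0.39 to 0.46 on HFD and 0.44 to 0.53 on chow.

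Markers of brown adipocytes moved with Lrpprc on chow. The 8 markers summed to 220.0 to 1118 CPM in KI mice and 74.3 to 192 CPM in WT mice, without overlap, and of the 5 that were tested 2 were called higher, Cidea and Cox8b. Ucp1 stayed at or below 0.895 CPM in these KI mice, and Ucp1 and Dio2 had means below 1 CPM. On HFD the same 8 markers overlapped, with 49.6 to 93.4 CPM in KI and 58.0 to 98.8 CPM in WT inguinal WAT. The part of these cells or genes in the Lrpprc difference was not tested. Slirp, the partner of Lrpprc, was chosen here for that role after its values had been seen. It had log2 fold changes of 0.26 in BAT, 0.00 in inguinal WAT on HFD and 0.13 on chow, none called.

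**Figure D2:**
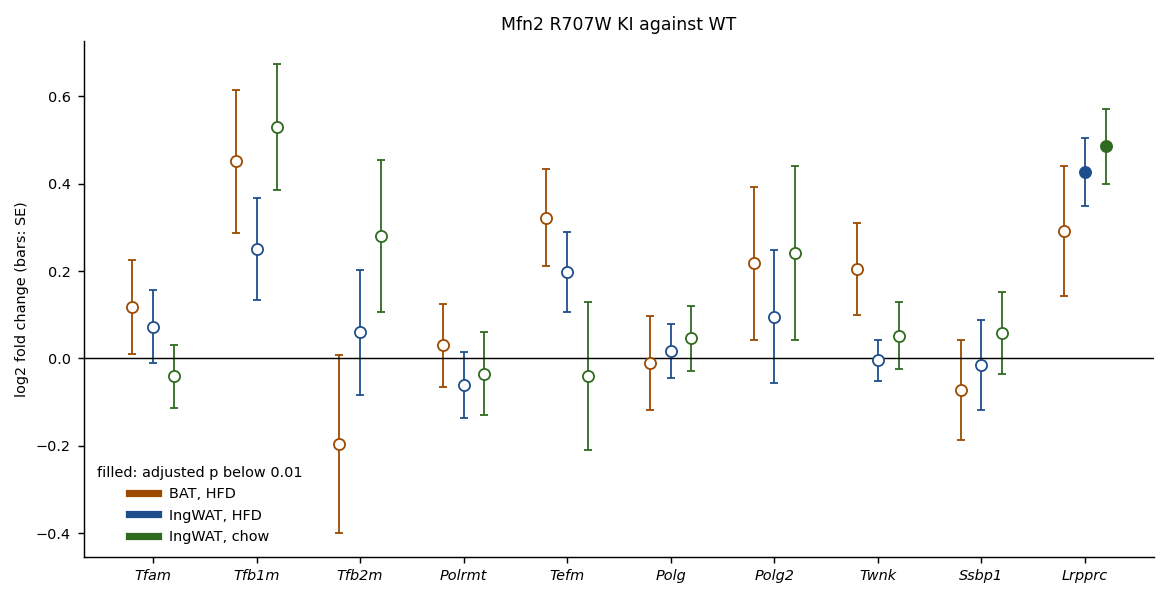
Log2 fold change of KI against WT mice for the 10 genes in the 3 tables, with bars for the SE. Filled points passed an adjusted p below 0.01 and open points did not. The filled points are Lrpprc in inguinal WAT on both diets, at 0.43 on HFD and 0.49 on chow.

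These counts stand against the share of all genes called in the same comparisons. In BAT 0 of 10 genes were called (edgeR), against 1.83% of the 13267 genes tested. DESeq2 also called 0 of 10, and 2 of 10, Tfb1m and Tefm, had an unadjusted p below 0.05. On HFD in inguinal WAT 1 of 10 was called, against 11.5% of 16471 genes. On chow 1 of 10 was called, against 3.23% of 14629 genes. The share among the 10 was thus near the background. Over the 10 genes, log2 fold changes had a median of 0.16 in BAT, 0.07 in inguinal WAT on HFD and 0.05 on chow, beside -0.01, 0.01 and -0.01 over all genes tested. Genotypes without overlap were seen for Tefm in BAT and Lrpprc on chow, 1 of 10 genes each, and for 0 of 10 in inguinal WAT on HFD, against 3.69%, 4.22% and 4.53% of all genes tested.

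The core transcription machinery beside Tfam showed no call between genotypes. Polrmt, the phage-like RNA polymerase of mitochondria (chr10:79736123-79746581, minus strand), had median levels of 50.2 CPM in WT and 54.9 CPM in KI BAT, 25.3 and 24.7 CPM in inguinal WAT on HFD and 21.2 and 21.7 CPM on chow. Its log2 fold changes lay between -0.06 and 0.03. The genotypes overlapped in every table. Tfb2m, the initiation factor that melts the promoter with Polrmt (chr1:179528055-179546267, minus strand), varied most among mice in BAT of KI mice, from 13.5 to 34.4 CPM with a median of 16.4 CPM. WT BAT had 17.6 to 26.9 CPM with a median of 21.1 CPM. The highest KI value, in mouse 5, stood apart from the rest, and the log2 fold change in BAT was -0.20 ± 0.20. In inguinal WAT it was 0.06 ± 0.14 on HFD and 0.28 ± 0.17 on chow.

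Tefm, the elongation factor that holds Polrmt on its template (chr11:80136678-80142175, minus strand), was the member of this group that separated the genotypes in BAT. Its lowest, median and highest levels were 15.9, 19.4 and 20.8 CPM in WT and 20.9, 24.7 and 28.5 CPM in KI BAT. All 6 KI values exceeded every WT value, by a small margin, and the log2 fold change of 0.32 ± 0.11 did not pass the test (edgeR adjusted p = 0.0857). In inguinal WAT the log2 fold change was 0.20 ± 0.09 on HFD (edgeR adjusted p = 0.137) and -0.04 ± 0.17 on chow. On chow the WT mice spread from 7.54 to 19.0 CPM, wider than the KI mice at 10.7 to 11.9 CPM.

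Tfb1m, a methyltransferase that modifies the small mitochondrial rRNA (chr17:3519256-3557781, minus strand), had positive log2 fold changes in all 3 tables. In BAT its lowest, median and highest levels were 6.86, 9.35 and 11.5 CPM in WT and 9.31, 13.4 and 15.2 CPM in KI. On chow they were 5.38, 5.99 and 8.56 CPM in WT and 7.01, 9.34 and 10.9 CPM in KI. The KI mice were mostly above the WT mice in both, with 5 of 6 above every WT mouse in BAT and 4 of 6 on chow. The log2 fold changes were 0.45 ± 0.16 in BAT, 0.25 ± 0.12 in inguinal WAT on HFD and 0.53 ± 0.14 on chow, with edgeR adjusted p of 0.102, 0.140 and 0.0333. DESeq2 called Tfb1m on chow. Between 49 and 178 counts per mouse underlie these levels, and counting alone gives an error of 7.77% to 12.6%.

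None of the replication genes was called between genotypes. Polg, the catalytic subunit of the mitochondrial DNA polymerase (chr7:79446231-79466362, minus strand), had log2 fold changes of -0.01 ± 0.11 in BAT, 0.02 ± 0.06 in inguinal WAT on HFD and 0.05 ± 0.08 on chow. Its means were 91.2 ± 6.06 and 93.3 ± 13.2 CPM in WT and KI BAT, 70.8 ± 4.33 and 71.2 ± 5.55 CPM in inguinal WAT on HFD, and 67.5 ± 2.32 and 70.2 ± 8.09 CPM on chow. Polg2, its accessory subunit (chr11:106768253-106779537, minus strand), was the least abundant per deposited gene length in each of the 6 groups, at 30 to 179 counts per mouse. Its log2 fold changes of 0.22 ± 0.17, 0.10 ± 0.15 and 0.24 ± 0.20 were within the spread of the mice. Ssbp1, which coats single-stranded mitochondrial DNA (chr6:40471352-40484700, plus strand), gave -0.07 ± 0.11, -0.01 ± 0.10 and 0.06 ± 0.09.

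Twnk encodes the Twinkle helicase that unwinds the replication fork (chr19:45006558-45012762, plus strand). On HFD its lowest, median and highest levels in inguinal WAT were 30.0, 32.5 and 34.8 CPM in WT and 30.5, 32.1 and 33.3 CPM in KI. The coefficient of variation between those KI mice was 2.65%, below the 3.49% or more that counting alone gives for this gene. The log2 fold change was 0.00 ± 0.05, with a 95% interval of -0.10 to 0.09. In BAT, WT mice had 71.1, 79.4 and 100.1 CPM and KI mice 79.7, 102 and 107 CPM, and 4 of 6 KI values exceeded every WT value. The log2 fold change of 0.20 ± 0.11 was not called (edgeR adjusted p = 0.245). The KI effect was 0.26 ± 0.10 higher in BAT than in inguinal WAT on HFD, which did not pass the test either (edgeR p = 0.0145, adjusted p = 0.113).

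Some of these counts are shared with neighbours on the opposite strand, and whether the counting used strand is not given in the sources used here. Twnk shares 507 exon bases, 12.6% of its exon length, with Mrpl43, Polg shares 921 (8.57%) with Fanci, Tfb1m shares 142 (3.93%) with Tiam2 and Polg2 shares 132 (3.03%) with Milr1. None of the 4 neighbours was called between genotypes in any table. Tiam2 had log2 fold changes of 0.47 ± 0.18 in BAT, -0.21 ± 0.13 in inguinal WAT on HFD and -0.03 ± 0.17 on chow. Over the deviations of the 41 mice from their group means, r was 0.69 for Polg with Fanci and 0.54 for Twnk with Mrpl43. It was 0.30 for Polg2 with Milr1 and 0.14 for Tfb1m with Tiam2. Between WT BAT and WT inguinal WAT on HFD their means did differ. Mrpl43 had 63.7 and 28.4 CPM, Fanci 45.0 and 28.0 CPM, Tiam2 5.49 and 2.78 CPM, and Milr1 3.35 and 4.08 CPM. Without strand, reads from such bases cannot be told apart. Their part in the genotype and tissue differences, in the levels per kb and in the likeness of Twnk to other genes given below was not tested.

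Among the 10 genes, abundance per kb of exon differed widely. By the deposited gene length, Twnk ranked first in each of the 6 groups, at 20.2 ± 2.59 CPM per kb in WT BAT and 8.02 ± 0.357 CPM per kb in WT inguinal WAT on HFD. In WT BAT it was followed by Lrpprc at 15.3 ± 1.88, Tefm at 12.1 ± 1.11, Polrmt at 10.9 ± 1.07, Tfam at 10.7 ± 1.09, Polg at 8.49 ± 0.564, Tfb2m at 7.64 ± 1.24, Ssbp1 at 5.83 ± 0.688, Tfb1m at 2.54 ± 0.415 and Polg2 at 1.55 ± 0.283 CPM per kb. Polrmt and Tfam did not differ beyond their spread, nor did Polg and Tfb2m. With the length of the principal GENCODE transcript in place of the deposited length, an alternative chosen after the data had been seen, Lrpprc led in BAT at 29.7 ± 3.65 CPM per kb ahead of Twnk at 23.2 ± 2.98, while Twnk still led in the 4 inguinal groups. The largest span across groups was that of Lrpprc, whose mean was 5.76 times as high in KI BAT as in WT inguinal WAT on HFD. The smallest was that of Polg, at 1.38 times, while the mt- share spanned 7.35 times.

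The comparison of tissues separated the 10 genes far more than genotype did. In WT mice on HFD 10 of 10 were called higher in BAT than in inguinal WAT, against 57.8% of the 16201 genes tested, and in KI mice 9 of 10, against 60.9%. Those shares count both directions. Of all genes, 4552 were called higher in BAT and 4808 lower in WT mice, and 4852 and 5010 in KI mice. Lrpprc had the largest difference, 2.20 ± 0.11 on the log2 scale in WT mice and 2.11 ± 0.11 in KI mice. It was followed in WT mice by Twnk at 1.33 ± 0.07, Tefm at 1.24 ± 0.12, Tfam at 1.21 ± 0.08 and Polrmt at 1.00 ± 0.08. The smaller differences were 0.74 for Tfb1m, 0.68 for Tfb2m, 0.62 for Polg2, 0.58 for Ssbp1 and 0.37 for Polg, and their adjusted p were at most 0.00183 (edgeR). Their size depends on the TMM scaling, in which a lower factor gives higher levels. The factors were 0.709 to 0.877 in WT BAT and 1.05 to 1.18 in WT inguinal WAT on HFD. Before scaling, Polg had a mean of 632 counts in a mean total of 8.90e6 in WT BAT. In WT inguinal WAT on HFD it had 1700 in 2.17e7, so without the scaling Polg was not higher in BAT. In KI mice Tfb2m was not called, at 0.47 ± 0.18 (edgeR adjusted p = 0.0184), and with each mouse left out in turn its adjusted p ran from 0.00752 to 0.226. Tfam, Polrmt, Twnk and Lrpprc were higher in every BAT sample than in every inguinal sample on HFD and on chow, in both genotypes.

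Over the same contrast, nuclear genes of the respiratory chain were 3.16 higher in BAT by median log2 fold change in WT mice, with 72 of 73 called higher. The 13 mt- mRNAs were 1.32 higher, with 10 of 13 called. The median of the 10 genes was 0.87. In KI mice the medians were 3.26 for the nuclear respiratory chain genes, 2.73 for the mt- mRNAs and 1.06 for the 10 genes. The KI effect in BAT minus that in inguinal WAT was called for 5 of the 13 mt- mRNAs, with a median of 1.24, and for 0 of the 10 genes (edgeR), against 2.46% of all genes. DESeq2 also called 0 of 10, and 1 of 10, Twnk, had an unadjusted p below 0.05.

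Between the diets, most called members of the machinery were lower on HFD in WT inguinal WAT while the mt- mRNAs were higher. On HFD 5 of 10 genes were lower than on chow and 1 was higher, against 28.2% of all genes called in either direction. The falls were -0.69 ± 0.16 for Polg2, -0.53 ± 0.12 for Tefm, -0.47 ± 0.08 for Tfam, -0.34 ± 0.07 for Twnk and -0.33 ± 0.10 for Ssbp1, and the rise was 0.69 ± 0.18 for Tfb2m. All of the WT mice on HFD had less Tfam and less Twnk than any WT mouse on chow. The 13 mt- mRNAs had a median of 1.43 and 12 of 13 were called higher on HFD, while the nuclear respiratory chain genes had a median of -0.81 with 62 of 73 called lower. In KI mice 5 of 10 genes were lower on HFD and none was higher, against 31% of all genes. These were Polg2 at -0.85 ± 0.17, Tfb1m at -0.49 ± 0.13, Ssbp1 at -0.42 ± 0.10, Twnk at -0.41 ± 0.07 and Tfam at -0.38 ± 0.08. In KI mice none of the 13 mt- mRNAs was called between the diets, with a median of 0.00.

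The difference between diets in the KI effect was called for 0 of the 10 genes (edgeR), with none at an unadjusted p below 0.05 and none by DESeq2, against 0.889% of all genes. It was called for 3 of the 13 mt- mRNAs, all lower, with a median of -1.25. When the diet comparison was fitted on its own groups, 3 of 10 genes were called in WT mice in place of 6, since Polg2, Ssbp1 and Tefm lost their calls. Their log2 fold changes over the 5 alternatives were -0.70 to -0.64, -0.34 to -0.29 and -0.54 to -0.48. In KI mice the same setting called 7 in place of 5, with Tefm and Lrpprc added, both lower on HFD. The call of Ssbp1 was also lost in 7 of 15 fits that left out 1 mouse.

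**Figure D3:**
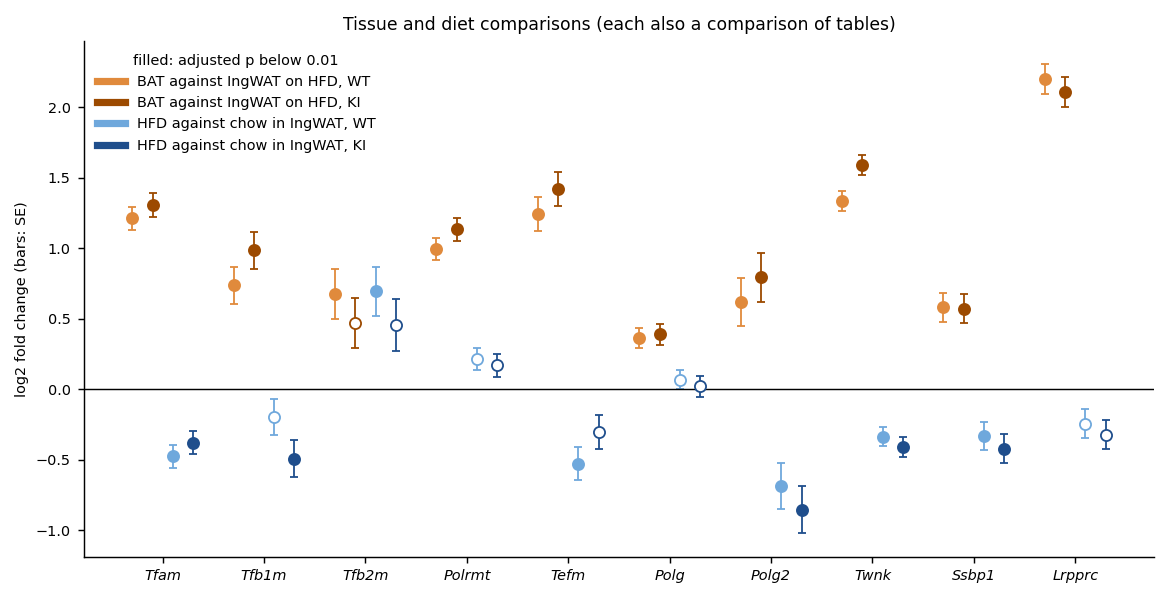
Log2 fold changes of the 10 genes between BAT and inguinal WAT on HFD and between HFD and chow in inguinal WAT, in WT and KI mice, with bars for the SE and filled points for an adjusted p below 0.01. All values for BAT against inguinal WAT lie above 0, with Lrpprc at 2.20 in WT mice, while 7 of 10 genes lie below 0 for HFD against chow in each genotype.

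The promoters of the 10 genes were read from RefSeq (GRCm38.p6), as 250 bases before to 50 bases after each start. All 10 genes matched, with 11 windows because Twnk has a pair of starts. The motif CCGGAAG, the core of the site bound by ETS factors such as GABP (also called NRF-2), was found on either strand in 7 of 10 genes. The same letters occur in 8.86% of all 32851 windows and in 17.2% of the 12500 windows of genes tested in all 3 tables. These 7 genes are shown because the motif is what their promoters share. They are Polg, Polg2, Polrmt, Ssbp1, Tefm, Tfam and Twnk, and the 3 without it are Lrpprc, Tfb1m and Tfb2m. Each stretch is read 5′ to 3′ along the strand of the gene, and capitals mark the motif or its reverse complement CTTCCGG. They lie at chr10:71238074-71238102 (Tfam), chr10:79746607-79746635 (Polrmt), chr11:80142154-80142173 (Tefm), chr7:79466294-79466322 (Polg), chr11:106779549-106779577 (Polg2), chr6:40471410-40471438 (Ssbp1) and chr19:45006437-45006465 and chr19:45006481-45006509 (Twnk).
Tfam: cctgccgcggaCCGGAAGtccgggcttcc
Polrmt: ccctaagagcgCTTCCGGcagtcgcagaa
Tefm: agcacacgaaaCCGGAAGtt
Polg: gaggacctcacCCGGAAGtccctctgcac
Polg2: cgggtgacgctCTTCCGGgggcgtggtct
Ssbp1: ggctccgtgcgCCGGAAGcgagccgctgg
Twnk, upstream match: ctaaccggtgaCTTCCGGttccggggttg
Twnk, downstream match: ggagagttttgCTTCCGGagtcaccgcga
In 6 of the 7 genes the match ended within 50 bases before the start, and in Tfam and Ssbp1 it spanned the same positions, -47 to -41. The letters GCGCANGCG, the core of the NRF1 site, were found in Polrmt and Tfb2m, against 6.25% of all windows and 13.05% of those of tested genes. The SP1 box GGGCGG was found in 7 of 10 genes, against 35.7% of all windows and 62.3% of those of tested genes. TGATGNAA, the core of the site for ATF4 with its C/EBP partner, was found in none of the 10, against 3.97% and 2.27%. Matches of different motifs did not overlap. A match is a run of letters in a window, with no reading on binding.

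Other genes of the pathway were taken from lists. Of 18 further genes of mitochondrial DNA replication and repair, 1 was called in BAT (Apex1, an abasic site endonuclease, 0.54 ± 0.09 higher), 2 in inguinal WAT on HFD and none on chow. Of all genes tested, 1.83%, 11.5% and 3.23% were called, so the count on HFD was near the background. The pair on HFD were Mutyh, a DNA glycosylase, at 0.83 ± 0.10, and Dna2, a nuclease and helicase, at -0.66 ± 0.16. Their medians were 0.08, 0.17 and 0.08. Of 5 genes of the mTERF family, none was called in any table, with medians of -0.06, 0.05 and 0.30.

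A gene for the supply of nucleotides was called in every table. Slc25a33, a carrier that brings pyrimidine nucleotides into mitochondria, had lowest, median and highest levels of 60.6, 79.1 and 98.7 CPM in WT BAT and 151, 170.9 and 244 CPM in KI BAT. On HFD in inguinal WAT they were 8.55, 11.2 and 14.3 CPM in WT and 23.8, 29.1 and 33.8 CPM in KI, and on chow 13.2, 17.0 and 21.6 CPM in WT and 33.5, 49.7 and 73.1 CPM in KI. No KI mouse overlapped with a WT mouse in any of the 3 tables. Of all genes tested, 3.69% in BAT, 4.53% in inguinal WAT on HFD and 4.22% on chow had genotypes without overlap. The log2 fold changes were 1.17 ± 0.14, 1.33 ± 0.10 and 1.57 ± 0.16, with edgeR adjusted p of 0.000161, 4.10e-08 and 3.63e-05. It was the only one of 18 nucleotide supply genes called in BAT and on chow, against 1.83% and 3.23% of all genes tested. On HFD in inguinal WAT 4 of 18 were called, against 11.5% of all genes tested. All were higher, among them Dguok, which phosphorylates deoxyguanosine in mitochondria (0.31 ± 0.06).

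Lonp1, the matrix protease known to degrade Tfam, was also called in all 3 tables. Its lowest, median and highest levels were 303, 390 and 483 CPM in WT BAT and 618, 772 and 1057 CPM in KI BAT. They were 117, 126 and 141 CPM in WT and 159, 203 and 212 CPM in KI inguinal WAT on HFD, and 108, 133 and 151 CPM against 243, 289 and 445 CPM on chow. The genotypes were again apart in every table, beside the same shares of all genes without overlap (3.69%, 4.53% and 4.22%). The log2 fold changes were 0.94 ± 0.15, 0.63 ± 0.06 and 1.18 ± 0.13 (edgeR adjusted p = 0.00181, 1.11e-06 and 0.000101). The other 2 genes of this list, Clpp and Clpx, were not called. The shares of all genes tested that were called were 1.83% in BAT, 11.5% in inguinal WAT on HFD and 3.23% on chow.

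Genes that cut, modify, store and degrade mt- RNA gave calls near the background shares of 1.83%, 11.5% and 3.23%. Of 31 measured, none was called in BAT, 2 were called in inguinal WAT on HFD and 1 on chow. Hsd17b10, a subunit of mitochondrial RNase P, was higher on HFD (0.37 ± 0.06), Fastkd3, an RNA-binding regulator, was lower (-0.44 ± 0.10), and Grsf1, a protein of mitochondrial RNA granules, was higher on chow (0.33 ± 0.07). Their medians of 0.16, 0.07 and 0.13 were close to those of the 10 genes. Of 12 nuclear regulators of mitochondrial genes, only the nuclear receptor Esrrg was called, lower in inguinal WAT on HFD by -1.06 ± 0.18.

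Among the products, the 13 mt- mRNAs had median log2 fold changes in KI mice of -0.69 in BAT with 2 called lower, -1.78 in inguinal WAT on HFD with 13 called lower, and -0.51 on chow with 0 of 12 tested called. The most changed called members were mt-Nd4 at -0.94 ± 0.14 and mt-Co1 at -0.75 ± 0.16 in BAT, and mt-Nd6 at -2.17 ± 0.17, mt-Co1 at -2.16 ± 0.22 and mt-Nd5 at -2.12 ± 0.19 on HFD. The nuclear respiratory chain genes had medians of 0.25, 0.17 and 0.38, with 0, 15 and 2 of 73 called higher and 1 lower on HFD (Ndufb3, -0.55 ± 0.10). Of all genes tested, 1.83%, 11.5% and 3.23% were called in either direction. Sdhb, the iron-sulphur subunit of complex II, was called higher in inguinal WAT on both diets, by 0.70 ± 0.07 on HFD and 0.67 ± 0.14 on chow. Of the complex I subunits, Ndufv1 was called higher on HFD (0.48 ± 0.09) and Ndufa10 on chow (0.56 ± 0.10).

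Whether a mouse with more mt- transcripts also had more of the machinery was asked within each group, since the groups form separate clusters. Levels were taken relative to nuclear counts alone, so that the mt- genes did not enter both measures. Of 60 relations (10 genes in 6 groups of 6 to 8 mice), 0 passed an adjusted p below 0.05 (exact permutation tests of Pearson's r and of Spearman's rho), 4 had an unadjusted exact p below 0.05 for r and 2 for rho. In the groups of 6 mice (BAT of both genotypes and KI mice on chow) a lone relation could not have passed, however close. Too few orders of 6 mice exist for an adjustment over 60, so the count does not decide on a lone relation there. Pearson's r ran from -0.86 to 0.85. No gene had the same sign in all 6 groups. Polg and Ssbp1 came nearest, positive in 5 of 6 groups each, with medians of r of 0.41 and 0.34.

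Tfam correlated with the mt- share at r = 0.81 in KI inguinal WAT on HFD (n = 8; rho = 0.64; exact p = 0.0273 and 0.0962; adjusted p = 0.478 and 0.900). Without the 2 mice farthest from the median share r was 0.06, so the relation was not seen among the other 6 mice. Leaving out the most extreme shares narrows their range, which can lower r in itself. It is thus not settled whether the relation rests on those mice. In the other 5 groups r for Tfam was between -0.27 and 0.78. Polg2 gave the extremes in both directions, with r = -0.86 in WT BAT (n = 6; rho = -0.60; exact p = 0.0458 and 0.242), 0.85 in KI inguinal WAT on HFD (n = 8; rho = 0.62; exact p = 0.0306 and 0.115) and -0.83 in KI inguinal WAT on chow (n = 6; rho = -0.89; exact p = 0.0194 and 0.0333). The adjusted p were 0.478 for each r and 0.900 for each rho. Without the 2 farthest mice these became -0.91, 0.07 and -0.13, over 4, 6 and 4 mice. The last 2 relations were not seen among the mice left, with the same limit on what this shows. Lrpprc had r = -0.69 and rho = -0.81 in WT inguinal WAT on HFD (n = 8; exact p = 0.0595 and 0.0218; adjusted p = 0.478 and 0.900), and r was -0.52 without the 2 farthest mice.

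**Figure D4:**
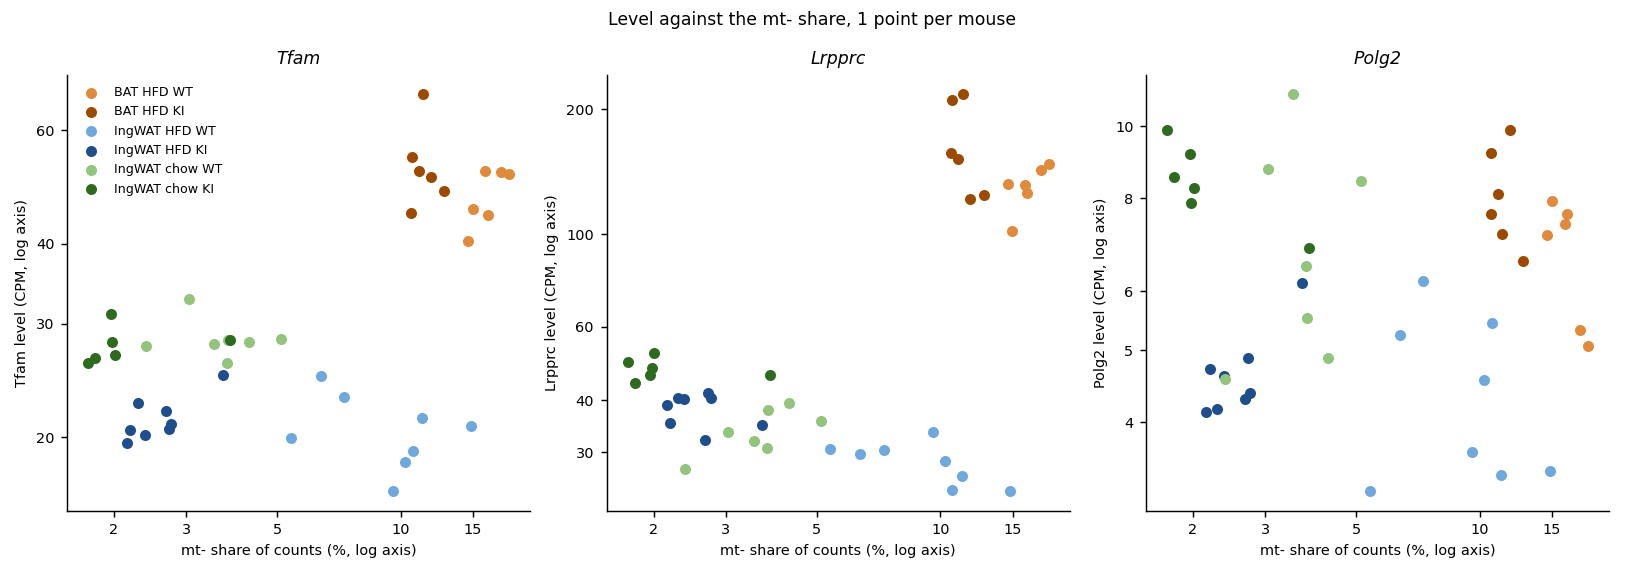
Level of Tfam, Lrpprc and Polg2 against the mt- share of counts, 1 point per mouse, both axes logarithmic, with colours for the 6 groups. The groups form clusters: KI mice on HFD lie at mt- shares of 2.15% to 3.68% in inguinal WAT and WT mice at 5.40% to 14.8%, at like levels of Tfam.

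**Figure D5:**
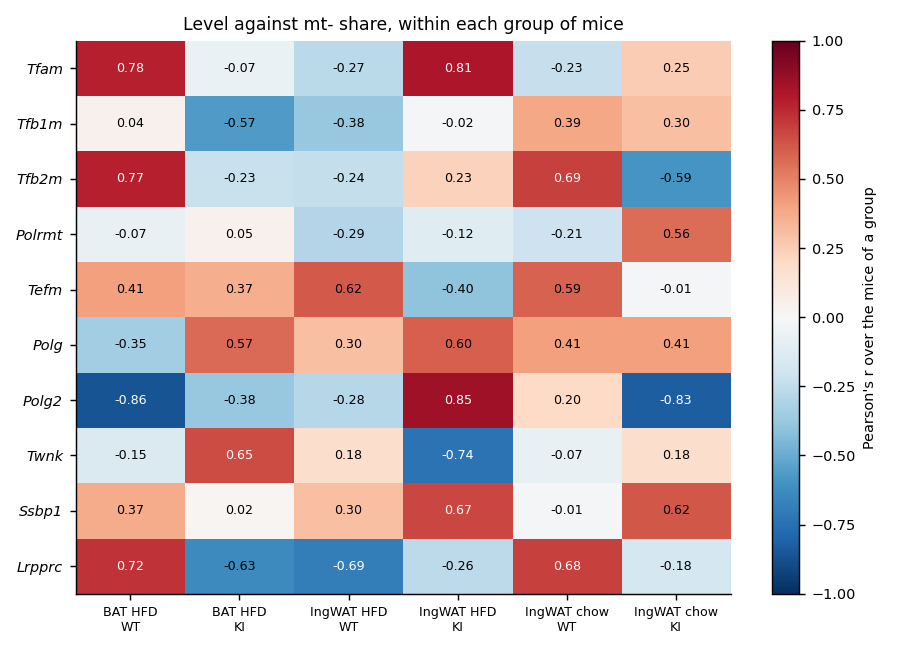
Pearson's r between the level of each gene and the mt- share over the 6 to 8 mice of a group, from -1 (blue) to 1 (red). The signs change from group to group, with Polg2 at -0.86 in WT BAT and 0.85 in KI inguinal WAT on HFD, and none of the 60 values passed an adjusted p below 0.05. In the groups of 6 mice a lone relation could not have passed.

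Variation from mouse to mouse was compared between genes. Over the deviations of the 41 mice from their group means, the 45 pairs among them had a median r of 0.07 and a range of -0.59 to 0.68, given as a description because mice of a table differ in what their tissue holds, such as muscle RNA. The lowest pair was Polg with Lrpprc. Among 11698 other nuclear genes, those most like Twnk were Uqcrq at r = 0.82, Atp5g3 at 0.81 and Romo1 at 0.80, and those most like Lrpprc were 1700022I11Rik at 0.83, Tcea1 at 0.82 and Gm46218 at 0.81. Tfam was nearest to Npm3 at 0.69, Vbp1 at 0.68 and Ercc8 at 0.66, and Polrmt to Irf3 at 0.67, Tha1 at 0.65 and Mamdc4 at 0.64. Uqcrq and Atp5g3 encode subunits of respiratory complexes, while none of the 3 genes nearest to Tfam, Polrmt or Lrpprc is among the 10.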

How the data were processed

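The authors deposited raw counts per gene and mouse in 3 tables. The submitters' processing notes name cutadapt, STAR, SAMtools and featureCounts on GRCm38, and versions and strand setting are not given in the sources used here. For inguinal WAT on HFD, 2 libraries per mouse share 1 deposited column, which was taken as the mouse. Of the 54838 entries per table, 1884 without length or count were left out and repeated symbols with identical values were kept once, leaving 52853 genes. Groups followed the labels. KI was compared with WT in each table with edgeR 4.0.16 in R 4.3.3 (TMM, filterByExpr, robust quasi-likelihood), and tissues, diets and interactions in 1 fit of all 6 groups. SEs are the log2 fold change over the root of F. The mt- share and its relations were tested by exact permutation in Python 3.11.15, adjusted over 3 tables or 60 relations. The sources do not say if the mice of the BAT and inguinal groups overlap, so tissue tests took them as independent. Named were the 10 genes, Mfn2, Ucp1, Adipoq, for each pathway list at most the 3 called genes with the largest change per genotype comparison, and the 3 genes most like Tfam, Polrmt, Twnk and Lrpprc (CPM of at least 5). Cidea and Cox8b are all called brown markers on chow, and Slirp, Clpp, Clpx and the regulators of the closing section were named after values had been seen. A gene that this rule names is not reported here. The members and lists were chosen with earlier results of these data known. Alternatives were DESeq2 1.42.0, RLE size factors, other low-count filters, mt- genes left out, a replicate block, other fits and thresholds, and each mouse left out. The scripts were tested on simulated counts with 200 changed genes. At a log2 change of 1.5, 97.5% of these were called in BAT, 96% in inguinal WAT on HFD and 89.5% on chow. At a change of 0.5 the shares were 0.5%, 31.5% and 2%.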

Additional observations from a re-analysis of the deposited data

Results flagged for a closer look

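Outlying mice were sought in 66 sets of 6 to 8 mice (10 genes and the mt- share in 6 groups) with Dixon's 95% criterion, by which chance alone would give about 3.30, and 5 were found. Tfam reached 32.8 CPM in mouse 1 of the WT group on chow, far above the other 6 mice. Tfb2m reached 34.4 CPM in mouse 5 of the KI group in BAT. Polg2 was at 6.15 CPM in mouse 2 of the KI group in inguinal WAT on HFD, and the same mouse had the highest mt- share of its group, 3.68%. That mouse is 1 of the 2 farthest from the median share, without which r with the share was 0.06 for Tfam and 0.07 for Polg2. The mt- share was 3.84% in mouse 4 of the KI group on chow, the mouse with skeletal muscle markers at 61189 CPM in sum.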

How the results depend on the processing

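Of 2120 refits of single gene values, 2097 kept their side of the threshold, 14 lost a call, 9 gained one and 0 called values turned sign, while 40 uncalled values did turn sign. The number of the 10 genes called in inguinal WAT on chow was 1, and became 2 with DESeq2, 2 with 1 fit of all 6 groups, 2 at an adjusted p below 0.05, 0 below 0.001 and 0 with the mouse number as a replicate block (Lrpprc, adjusted p = 0.0378), a fit that leaves out the WT mouse whose number no KI mouse has. The numbers do not pair the mice: deviations of same-numbered mice correlated above 0.1 in 3 of 6, 2 of 8 and 2 of 6 pairs in BAT and inguinal WAT on HFD and chow. The block changed no other count of the 10 genes. For HFD against chow with only those groups fitted, 3 in place of 6 were called in WT and 7 in place of 5 in KI mice, and the cause was not tested. Over all genes, calls in BAT went from 243 to 717 with DESeq2, 834 in the fit of all groups, 952 at 0.05 and 59 at 0.001. On chow they went from 472 to 1107, 1088, 1252 and 125, and to 127 with the block. In inguinal WAT on HFD they went from 1886 to 1242 in the fit of all groups, 3448 at 0.05 and 880 at 0.001, and for the interaction with diet from 144 to 358 and with tissue from 399 to 731 with DESeq2. Leaving out each mouse kept the counts of the 10 genes in every comparison within 1.5 times. The length used moved levels per kb, but not the lead of Twnk in inguinal WAT. Polg2 and Tfb1m rest on 30 to 179 counts per mouse, and their coefficients of variation between mice, 12.4% to 33.6% and 15.0% to 17.6%, compare with 9.09% to 14.6% and 7.77% to 12.6% from counting alone.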

Other observations

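Regulators upstream of the machinery were looked at after the counts of the lists were known. Ppargc1a, the coactivator of mitochondrial gene programmes, had log2 fold changes of 1.23 ± 0.32 in BAT, 0.56 ± 0.19 in inguinal WAT on HFD and -0.70 ± 0.35 on chow, with edgeR adjusted p of 0.0352, 0.0372 and 0.238, so none was called. Nrf1 had 0.28 ± 0.16, 0.12 ± 0.08 and 0.26 ± 0.09. Gabpa, a subunit of the ETS factor GABP, had 0.15 ± 0.09, 0.11 ± 0.06 and 0.09 ± 0.07, and none of these values was called. Top1mt, the mitochondrial topoisomerase, had -0.18 ± 0.17 in BAT, 0.26 ± 0.09 in inguinal WAT on HFD and 0.61 ± 0.14 on chow, the last with an edgeR adjusted p of 0.0142.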
